A study of Penicillium oxalicum with 24 samples.

Results

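The wild-type strain 114-2 of *Penicillium oxalicum*, a filamentous fungus that secretes enzymes against plant cell walls, was compared on cellulose and on glucose in 6 RNA-seq libraries, 3 from cellulose cultures and 3 from glucose cultures. A gene entered the comparison when its RPKM reached 1 in 3 or more of the 6, which 8888 of the 9832 deposited genes did. RPKM is the number of reads on a gene scaled to the gene's length and to the reads on all genes of the library, so it gives a gene's share of the measured RNA and not an amount per cell. In its 3 highest libraries the gene just inside that limit, PDE_06901, had an RPKM of at least 1.01, and the gene just outside it, PDE_03498, had 0.998 in the lowest of its 3 highest.

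The cellulose cultures were mycelia pregrown in 2% glucose for 22 h, held in medium without carbon source for 2 h and then moved to 2% cellulose for 4 h in Vogel's medium at 30 °C and 200 rpm. The glucose cultures had the same history but spent the last 4 h in 2% glucose. A further 3 wild-type libraries, from mycelia that spent the last 4 h without carbon source, are given beside single results as a second point of comparison. The labels of those 3 libraries do not list the 2 h step, which the study's methods describe for every final medium. The series holds 24 libraries in 8 groups of 3, and the libraries not named so far, which come from regulator mutants on cellulose, entered here only through the shared estimate of spread. The question was which genes of the wild type differ in transcript level between a polymer that must be cut outside the cell and its own monomer. Labels call all samples fungal mycelia, and no host or second species is named.

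Cellulose cannot enter a fungal cell. Cellobiohydrolases, which run along cellulose chains, endoglucanases, which cut within them, and copper-dependent lytic polysaccharide monooxygenases, which cleave them by oxidation, release cellodextrins. Beta-glucosidases split these into glucose, and sugar transporters take both up. In filamentous fungi, the genes for these enzymes are known to be kept low by carbon catabolite repression while glucose is at hand, with the zinc-finger repressor CreA as a central component, and to be raised by zinc cluster activators of the Clr-2 and XlnR types. Ribosome production is, as in other microbes, generally known to follow the supply of easily used carbon.

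The 3 cellulose libraries held 7.53 to 7.74 M reads (M for 1e+06) on genes and the 3 glucose libraries 7.65 to 8.17 M. Pearson's r of log2(RPKM + 1) across genes, which are not independent replicates, was 0.988 to 0.991 between cellulose libraries, 0.992 to 0.993 between glucose libraries and 0.689 to 0.702 between a library of each medium. Cellulose replicate 1 stood somewhat apart from the other 2 cellulose libraries (chi-square divided by degrees of freedom 32.7 against each, and 11.9 between the other 2), and results that rest on it are given with and without it. Calls needed a Benjamini-Hochberg adjusted p under 0.05 in edgeR's quasi-likelihood test together with a log2 fold change, cellulose over glucose, above 1 or below -1. Of the 8888 genes, 2030 (22.8%) were called higher on cellulose and 1951 (22.0%) lower, 44.8% in all, and over all genes the log2 fold change had a median of -0.08. Large changes were mostly increases: 208 called genes were more than 32-fold higher on cellulose and 52 were more than 32-fold lower. All 3 cellulose libraries lay above all 3 glucose libraries for 39.6% of the genes and below them for 43.5%, so such a separation alone says little of a single gene. Cellulose was called higher than no carbon source for 3.08% of the genes and lower for 4.91% (7.99% in all), and glucose higher than no carbon source for 19.7% and lower for 22.9% (42.5% in all). Those 2 contrasts share the libraries without carbon source, and each shares its other libraries with the main comparison, so their values are given side by side only.

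Of the 18 genes that the study lists as cellulases, 17 passed the RPKM limit. On cellulose 12 of these 17 rose (70.6%, beside 22.8% over all genes), 2 fell (11.8%, beside 22.0%) and 3 were not called. Their median log2 fold change was 5.25, beside -0.08 over all genes. The study took the 18 from the genome but had also listed 10 of them on these libraries, which are no independent evidence of direction. With its tables of mutants against these same cellulose libraries, 12 of the 18 had been listed on expression. The main cellobiohydrolase gene *cbh1* (PDE_07945), whose product is the most familiar cellulase of such fungi, had 1323, 950.1 and 734 RPKM on cellulose, against 5.22, 6.30 and 14.3 RPKM on glucose. Every cellulose library exceeded every glucose library and the fitted difference was 116-fold (log2 fold change 6.86, SE 0.44, adjusted p = 3.3e-11). *cel6A* (PDE_07124), which encodes the cellobiohydrolase that works from the other chain end, had 398, 273 and 202 RPKM on cellulose, against 5.53, 8.91 and 15.5 RPKM on glucose (log2 fold change 4.87, SE 0.39, adjusted p = 9.7e-10). Replicate 1 was the highest cellulose library for both genes and replicate 3 the highest glucose library, without overlap between the media. The remaining cellobiohydrolase gene of the list, PDE_05445, was at the other end of the range, with 3.04, 2.20 and 2.63 RPKM on cellulose, against 4.49, 4.13 and 4.69 RPKM on glucose. Its cellulose libraries lay below all glucose libraries, but its log2 fold change of -0.76 (adjusted p = 0.028) did not reach the size needed for a call.

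Among the 14 tested genes for endoglucanases and monooxygenases, 10 rose (71.4%, beside 22.8% over all genes) and 2 fell (14.3%, beside 22.0%). *cel7B* (PDE_07929), an endoglucanase gene, had 850.5, 719 and 585 RPKM on cellulose, against 3.95, 6.33 and 7.94 RPKM on glucose (log2 fold change 6.88, SE 0.28, adjusted p = 8.3e-14). Its neighbour by locus number, the endoglucanase gene *cel45A* (PDE_07928), had 790.1, 729.9 and 596 RPKM on cellulose, against 3.97, 2.45 and 6.60 RPKM on glucose, a 161-fold difference (log2 fold change 7.33, SE 0.34, adjusted p = 3.5e-13). Levels of both genes fell into 2 well separated sets with the media. *eg2* (PDE_09226), *cel5C* (PDE_09969), *cel5A* (PDE_00507) and PDE_09267, all endoglucanase genes, had log2 fold changes of 6.01, 6.37, 5.25 and 5.56. Among these, PDE_09267 had the most even cellulose values, at 668, 733 and 629 RPKM, against 14.8, 15.3 and 12.7 RPKM on glucose.

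Of the cellulose monooxygenase genes, PDE_01261 had 193, 162 and 148 RPKM on cellulose, against 1.03, 0.857 and 1.27 RPKM on glucose (log2 fold change 7.29). *cel61A* (PDE_05633) was close to silent on glucose: it had 324, 135 and 196 reads in the cellulose libraries, against 0, 1 and 1 in the glucose libraries. The ratio of its summed and scaled reads was 340.5, with an exact 95% interval of 93.9 to 2817 that covers counting error only. The monooxygenase gene PDE_00698 had 155, 183 and 157 RPKM on cellulose, against 9.75, 12.6 and 15.7 RPKM on glucose (log2 fold change 3.70, SE 0.29, adjusted p = 6.9e-10). It differed from the other 2 in the libraries without carbon source, where it had 189, 157 and 156 RPKM, so its cellulose values lay within reach of the starved ones (log2 fold change 0.15, not called) and only its glucose values stood apart (-3.55). For *cbh1*, by contrast, the mean without carbon source was 42.9 ± 11.2 RPKM (SD, n = 3), and cellulose was higher than that with a log2 fold change of 4.72.

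The cellulase list also held genes that did not follow *cbh1*. The endoglucanase gene PDE_09014 had 52.7, 53.3 and 56.1 RPKM on cellulose, against 158, 169 and 168 RPKM on glucose, and fell on cellulose (log2 fold change -1.62, SE 0.24, adjusted p = 5.8e-06). PDE_02886, annotated as specific for xyloglucan, had 22.7, 29.1 and 27.9 RPKM on cellulose, against 58.5, 54.5 and 57.1 RPKM on glucose and fell as well (log2 fold change -1.10, adjusted p = 2.9e-05). On glucose these 2 were among the cellulase genes with the most reads per length, together with PDE_03711 at 173, 199.5 and 215 RPKM. PDE_03711 had 94.6, 116 and 111 RPKM on cellulose, and its log2 fold change of -0.87 was not called although the libraries did not overlap. PDE_06439 (0.31, adjusted p = 0.36) overlapped between the media. PDE_06768 rose, with 11.3, 13 and 15.2 RPKM on cellulose, against 1.67, 2.34 and 2.20 RPKM on glucose. PDE_05193 had under 1 RPKM in each of the 6 libraries and was not tested.

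Both characterised beta-glucosidase genes rose. *bgl1* (PDE_02736) had 277, 274 and 209 RPKM on cellulose, against 3.08, 2.63 and 3.28 RPKM on glucose (log2 fold change 6.40, SE 0.36, adjusted p = 5.6e-12). *bgl2* (PDE_00579) had 551, 521 and 493 RPKM on cellulose, against 19.1, 17.7 and 19.5 RPKM on glucose (log2 fold change 4.79, SE 0.22, adjusted p = 2.8e-13). The media did not overlap for either gene. They parted without carbon source: *bgl1* had 143, 87.7 and 91.1 RPKM there, far above its glucose values, and *bgl2* 26.4, 30.2 and 21.9 RPKM, close to its glucose values. The other 2 members listed, PDE_04251 and PDE_04859, rose by 4.19 and 2.85 on the log2 scale, so that all 4 were called higher (22.8% over all genes). The swollenin gene PDE_02102, whose product loosens cellulose without cutting it, had 1254, 1082 and 908 RPKM on cellulose, against 1.39, 2.79 and 5.08 RPKM on glucose, a 349-fold difference (log2 fold change 8.45, SE 0.42, adjusted p = 9.6e-13). Of the 4 beta-glucosidase genes, 3 were chosen for listing by the study on these same libraries, so their direction is no independent evidence. The study predicts further beta-glucosidase genes that are not listed here, so the list is partial.

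**Figure D1:**
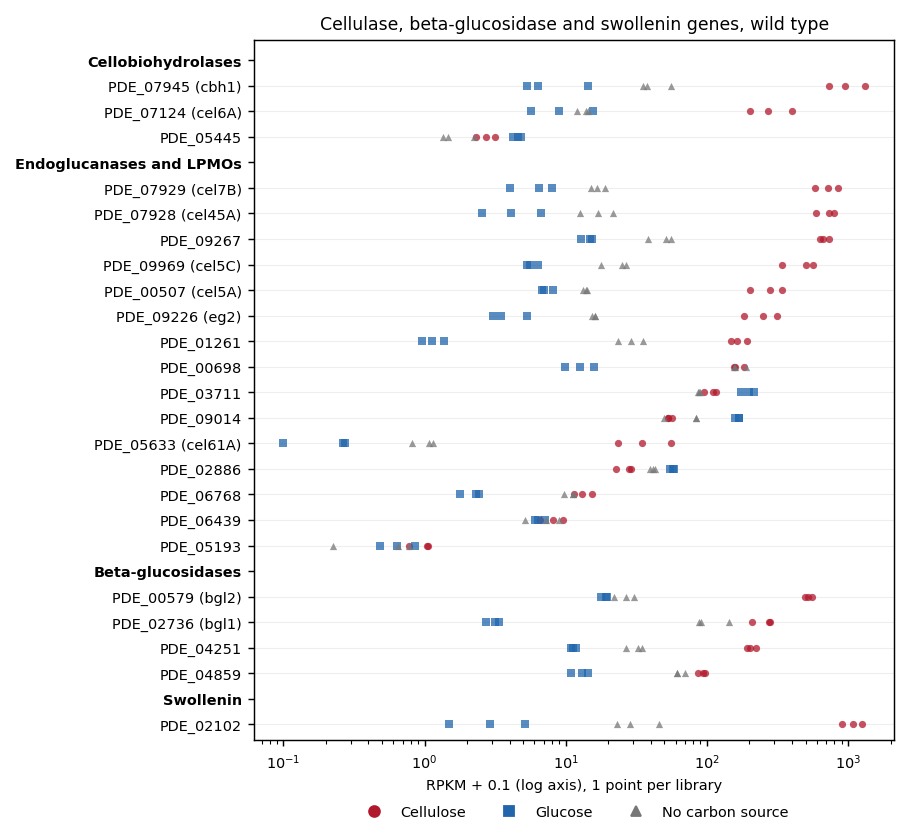
RPKM + 0.1 of each cellulase, beta-glucosidase and swollenin gene on a log axis, with 1 point for each wild-type library: red circles for cellulose, blue squares for glucose and grey triangles for no carbon source. The 2 highest cellobiohydrolase genes and most endoglucanase genes have red points to the right of all blue ones, while PDE_05445, PDE_03711, PDE_09014 and PDE_02886 have blue points furthest right.

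Genes for hemicellulose breakdown rose without exception among those listed. All 31 members of the xylanase, beta-xylosidase, arabinan, xylan esterase, mannan and alpha-xylosidase lists were called higher on cellulose (22.8% over all genes), with a median log2 fold change of 5.69 and a range of 1.04 to 9.85. These lists are not complete, and 26 of the 31 genes were chosen for listing on these libraries, so the count describes them and is no independent evidence of direction. The 5 others were called higher too. Counting also the study's tables of mutants against these same cellulose libraries, 29 of the 31 had been listed on expression. Together the 31 genes took 2.18, 2.15 and 1.78% of the reads in the cellulose libraries, against 0.0423, 0.0477 and 0.0472% in the glucose libraries.

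The xylanase gene PDE_04478 reached the highest level of any of these enzymes and was among the 5 most abundant transcripts on cellulose, with 11959, 10626 and 8959 RPKM on cellulose, against 13.7, 19.3 and 29.4 RPKM on glucose. That is a 505-fold difference (log2 fold change 8.98, SE 0.34, adjusted p = 2.8e-14), seen in all 3 cellulose libraries. *xyn1* (PDE_08094), also a xylanase gene, had 3320.2, 3661 and 2352 RPKM on cellulose, against 4.96, 8.49 and 10.7 RPKM on glucose (log2 fold change 8.60, SE 0.37, adjusted p = 1.3e-13). Another, PDE_03573, was nearly off on glucose, with 417, 446 and 374 RPKM on cellulose, against 0.424, 0.363 and 0.511 RPKM on glucose (log2 fold change 9.85, SE 0.27, adjusted p = 2.3e-16). PDE_00752 had 1467, 1760 and 1389 reads in the cellulose libraries, against 2, 3 and 1 in the glucose libraries. Its ratio of summed and scaled reads was 799.9, with an exact 95% interval of 367 to 2181 for counting error only. The remaining xylanase genes changed less or started higher: PDE_02101 by 5.55, PDE_02418 by 2.65 and PDE_02682 by 1.89 on the log2 scale. PDE_02682 is the 1 xylanase gene here that the study had not listed for its response to cellulose, and it had 53.3, 59.4 and 49.6 RPKM on cellulose, against 16.2, 12 and 15.4 RPKM on glucose.

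Beta-xylosidases release xylose from the ends of xylan fragments. PDE_06306 led them in level, with 750.2, 735 and 628 RPKM on cellulose, against 4.57, 5.76 and 4.24 RPKM on glucose (log2 fold change 7.17), and PDE_08037 in change, with 147, 183 and 150.3 RPKM on cellulose, against 0.226, 0.629 and 0.50 RPKM on glucose (8.45). The acetyl xylan esterase gene PDE_04182, whose product strips acetyl groups from xylan, had 1189.6, 1233 and 1380.2 RPKM on cellulose, against 8.51, 8.53 and 14 RPKM on glucose (log2 fold change 6.93, SE 0.28, adjusted p = 7e-14). The exo-arabinanase gene PDE_08038 had 574, 588 and 398 RPKM on cellulose, against 1.19, 1.49 and 1.8 RPKM on glucose (8.43). In each of these genes the lowest cellulose library was above the highest glucose library. The arabinofuranosidase gene PDE_06067 was the exception in size, at 279.7, 316 and 341 RPKM on cellulose, against 144, 162 and 147 RPKM on glucose and a log2 fold change of 1.04, and was already well expressed on glucose.

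Mannan is another hemicellulose that such fungi degrade. The mannanase gene PDE_06023 had 357, 291 and 293 RPKM on cellulose, against 3.87, 5.81 and 6.94 RPKM on glucose (log2 fold change 5.82, adjusted p = 1.3e-13). PDE_05998, a beta-mannosidase gene whose locus number is next to that of *clrB* (PDE_05999), had 214, 213 and 239.7 RPKM on cellulose, against 3.90, 4.17 and 4.40 RPKM on glucose (5.73, adjusted p = 1.2e-11). The alpha-xylosidase gene PDE_06944, for an enzyme that trims xyloglucan, had 97.3, 102 and 86.9 RPKM on cellulose, against 2.46, 4.29 and 3.17 RPKM on glucose (4.85). Another mannanase gene, PDE_06438, and the alpha-galactosidase gene PDE_02514 rose by 1.75 and 2.37 on the log2 scale. PDE_06438 was low in both media, at 11.2, 16.6 and 8.22 RPKM on cellulose, against 3.84, 4.10 and 2.77 RPKM on glucose.

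All 7 sugar transporter genes listed rose (22.8% over all genes), with a median log2 fold change of 8.21. Of these 7, 5 had been chosen for listing on these libraries. All 7 had been listed on expression when the study's tables of mutants against these same cellulose libraries are counted too. The count is therefore no independent evidence of direction. PDE_03571, annotated as a symporter of alpha-glucosides, had the largest called increase of any gene with more than 3 reads in each library. It had 1404, 1705 and 1833 RPKM on cellulose, against 0.917, 1.22 and 1.23 RPKM on glucose, a 1447-fold difference (log2 fold change 10.50, SE 0.35, adjusted p = 3.1e-15). *cdtC* (PDE_00607) and *cdtD* (PDE_00753) encode cellodextrin transporters. *cdtC* had 1812, 1854 and 2023 RPKM on cellulose, against 4.96, 4.91 and 8.26 RPKM on glucose (log2 fold change 8.28, SE 0.28, adjusted p = 6e-15). *cdtD* had 2747, 3169 and 3045 RPKM on cellulose, against 9.06, 10.3 and 10.7 RPKM on glucose (log2 fold change 8.21, SE 0.24, adjusted p = 5.4e-16). For both, the 3 cellulose libraries agreed closely and none of the glucose libraries came near them. PDE_06576 and PDE_04857 rose by 8.80 and 5.86 on the log2 scale. PDE_04150 and PDE_09994, further symporters of the alpha-glucoside type, behaved otherwise toward starvation: PDE_04150 had 331, 333 and 371 RPKM on cellulose, against 7.97, 6.37 and 7.78 RPKM on glucose and 288, 268 and 249.6 RPKM without carbon source. The log2 fold change of cellulose against no carbon source was 0.54 for PDE_04150 and 0.89 for PDE_09994, neither called, while that of *cdtC* was 5.84 and was called.

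Xylose set free from xylan passes through xylose reductase and xylitol dehydrogenase to xylulose. The xylose reductase gene PDE_02929 had 1264, 1482 and 1280.3 RPKM on cellulose, against 77.3, 68.0 and 65.8 RPKM on glucose (log2 fold change 4.25, SE 0.16, adjusted p = 2.2e-14). Genes annotated as xylulose reductase (PDE_05826), L-iditol dehydrogenase (PDE_00398) and xylulokinase (PDE_09158) rose by 3.43, 3.75 and 1.41 on the log2 scale. All 4 were called higher (22.8% over all genes), and all 4 had been listed on these libraries by the study.

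**Figure D2:**
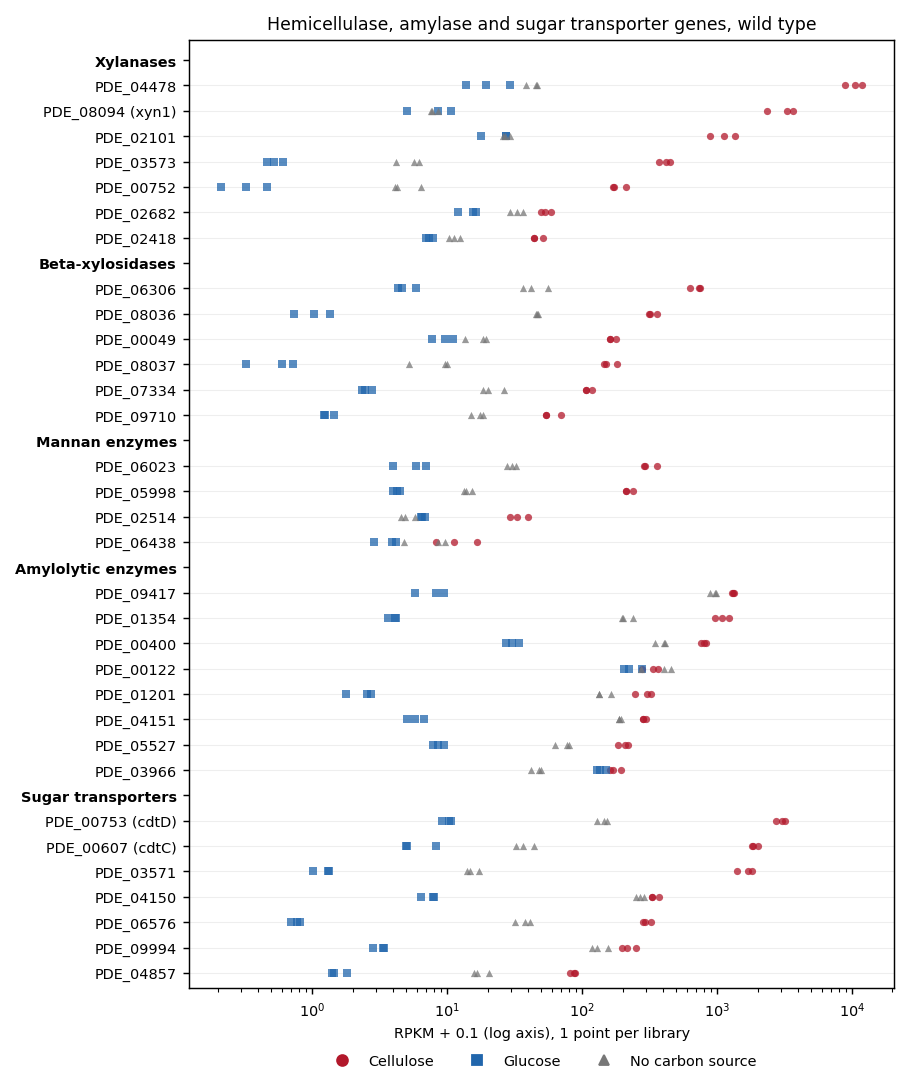
RPKM + 0.1 of hemicellulase, amylolytic and sugar transporter genes on a log axis, 1 point for each wild-type library, with cellulose in red, glucose in blue and no carbon source in grey. Cellulose points reach 11959 RPKM for the xylanase gene PDE_04478, and grey points lie near the red ones for the glucoamylase gene PDE_09417 and the transporter gene PDE_04150 but near the blue ones for *xyn1*.

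Cellulose contains no starch, but amylolytic genes were higher on it than on glucose. Of the 8 genes listed, 6 were called higher (22.8% over all genes) and none lower (22.0%), with a median log2 fold change of 5.16. The study had listed 4 of the 8 on these libraries. With its tables of mutants against these same cellulose libraries, all 8 had been listed on expression, so the count is no independent evidence of direction. The glucoamylase gene *amy15A* (PDE_09417), for an enzyme that frees glucose from starch ends, had 1324, 1332 and 1283 RPKM on cellulose, against 8.15, 9.39 and 5.67 RPKM on glucose (log2 fold change 7.40, SE 0.50, adjusted p = 8.2e-11). The alpha-amylase gene *amy13A* (PDE_01201) had 326, 302 and 245 RPKM on cellulose, against 2.47, 2.64 and 1.70 RPKM on glucose (log2 fold change 6.995). PDE_01354, for a protein with starch-binding and chitin-binding domains, had the largest change of the list, at 1099, 1236 and 971 RPKM on cellulose, against 4.04, 4.10 and 3.55 RPKM on glucose (log2 fold change 8.13, SE 0.43, adjusted p = 2.5e-12). Without carbon source *amy15A* averaged 944 ± 52.3, *amy13A* 144 ± 17.1 and PDE_01354 213 ± 22.9 RPKM (SD, n = 3 each). In that order, the log2 fold changes of cellulose over no carbon source were 0.65 (not called), 1.19 and 2.54, and those of glucose over no carbon source -6.75, -5.81 and -5.59. The alpha-glucosidase gene PDE_03966 and the glycogen phosphorylase gene PDE_00122 were not called between cellulose and glucose (0.33 and 0.46).

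Pectin genes rose at low levels. Of the 11 listed, 10 were tested, and 9 were called higher (22.8% over all genes) and none lower (22.0%). The median log2 fold change was 2.20. Only 1 of the 11 had been listed on these libraries, or 2 with the study's tables of mutants against the same cellulose libraries. Their median RPKM was 11.7 on cellulose, 2.6 on glucose and 13.2 without carbon source. The pectin acetylesterase gene PDE_03289 changed most among them, with 10.9, 13.2 and 13.3 RPKM on cellulose, against 0.628, 0.335 and 0.631 RPKM on glucose (log2 fold change 4.48, adjusted p = 4.3e-10). The pectate lyase gene PDE_06068 had 33.6, 39.8 and 39.4 RPKM on cellulose, against 7.26, 6.02 and 7.92 RPKM on glucose (2.40). Cellulose against no carbon source was called for 1 of the 10, the rhamnosidase gene PDE_06451 (1.71), while glucose was called lower than no carbon source for 8 of the 10. Over all genes 3.08% were called higher on cellulose than without carbon source and 22.9% lower on glucose than without.

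The 20 transcription factor genes come from the study's own deletion screen for altered cellulase production and were not chosen by expression. On cellulose 7 rose, 2 fell and 11 were not called, with a median log2 fold change of 0.49. The 7 that rose are 35% of the 20, beside 22.8% over all genes called higher, and the 2 that fell stand beside 22.0% called lower. *clrB* (PDE_05999), the activator gene of the Clr-2 type, had the largest change of the 20, with 108, 107 and 114 RPKM on cellulose, against 9.67, 11.4 and 11.2 RPKM on glucose (log2 fold change 3.34, SE 0.19, adjusted p = 8.3e-12). It stood between these without carbon source, at 69.2, 68.1 and 71.1 RPKM. Its paralog *clrB-2* (PDE_05883) had 16.2, 16.7 and 15.5 RPKM on cellulose, against 5.90, 7.37 and 8.41 RPKM on glucose (log2 fold change 1.16, SE 0.17, adjusted p = 5e-06), and 4.03, 3.65 and 3.14 RPKM without carbon source, below its level on either carbon source. Cellulose was higher than no carbon source for *clrB-2* (2.33) but was not called for *clrB* (0.84).

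*xlnR* (PDE_07674), for the xylanase activator, had 43.9, 54.0 and 47.7 RPKM on cellulose, against 8.55, 9.71 and 9.29 RPKM on glucose (log2 fold change 2.40, SE 0.23, adjusted p = 1.5e-08). *amyR* (PDE_03964), for the activator of amylase genes, had 214, 210.4 and 209 RPKM on cellulose, against 35.2, 33.1 and 37.7 RPKM on glucose (log2 fold change 2.57, SE 0.20, adjusted p = 6.9e-10) and 219, 266 and 209 RPKM without carbon source. *creA* (PDE_03168), the gene of the catabolite repressor, was also higher on cellulose, at 371, 313 and 307 RPKM on cellulose, against 93.2, 74.6 and 75.6 RPKM on glucose (log2 fold change 2.02, SE 0.17, adjusted p = 3.8e-09). The transcripts of *creA*, *xlnR* and *amyR* were thus all higher on cellulose, in libraries that did not overlap. Besides activating amylase genes, AmyR is described by the study as a repressor of cellulase expression. *ace1* (PDE_01988), for a repressor of cellulase genes known from *Trichoderma reesei*, lay at the limit: it had 210.4, 244 and 238 RPKM on cellulose, against 120.3, 118 and 108 RPKM on glucose, and its log2 fold change of 0.99 (adjusted p = 7.2e-05) missed the size for a call and passed it in 6 of the 15 other analyses. PDE_07199, a homeobox gene, and PDE_08462, a zinc finger gene, rose by 1.98 and 1.46 on the log2 scale. PDE_07134, related to a conidial separation gene of *Neurospora crassa*, had 14.1, 10.8 and 13.2 RPKM on cellulose, against 39.9, 30.9 and 31.2 RPKM on glucose and fell (-1.42, adjusted p = 1.7e-05). The bromodomain gene PDE_01512 also fell, with a value at the limit (-1.01), and was not called in 8 of the 15 other analyses.

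**Figure D3:**
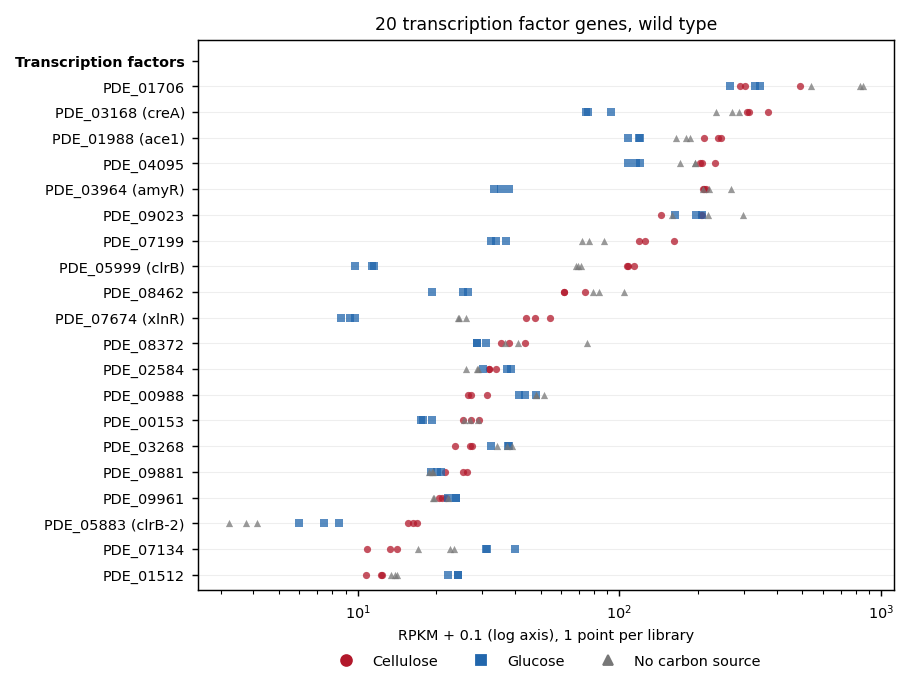
RPKM + 0.1 of the 20 transcription factor genes from the screen on a log axis, ordered by their mean on cellulose, with 1 point for each wild-type library (cellulose red, glucose blue, no carbon source grey). The widest gap between red and blue points is that of *clrB*, and the grey points of *amyR* and *creA* lie close to the red ones.

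Among the proteins that the study identified in the culture fluid of the wild type on cellulose, 86 were predicted to be secreted. Their genes form a list that was drawn from proteins and not from RNA. The fluid was taken days after the move to cellulose and the RNA after 4 h, so the 2 are not of the same time. Of these genes 83 were tested, 46 rose (55.4%, beside 22.8% over all genes) and 11 fell (13.3%, beside 22.0%), with a median log2 fold change of 1.42. Among the 59 tested genes that the study had not also listed on these libraries, 23 rose and 10 fell. With its tables of mutants against these same cellulose libraries, 37 of the 86 had been listed on expression. The 86 genes took 5.40, 5.40 and 4.78% of the reads on cellulose, against 2.11, 2.03 and 2.32% on glucose. Not all were enzymes of the cellulase group. PDE_01229, which has no annotation in the sources used here, had 2059, 1731 and 2247 RPKM on cellulose, against 5.77, 5.21 and 1.34 RPKM on glucose (log2 fold change 8.91), and PDE_04655 had 2509, 2578 and 1757 RPKM on cellulose, against 12, 23.1 and 12.1 RPKM on glucose (7.18). Without carbon source PDE_01229 had 2960.3, 1586 and 1787 RPKM and PDE_04655 6807, 3711 and 4178 RPKM, and cellulose against no carbon source was not called for either. In the other direction, PDE_00503 had 10.8, 11.2 and 6.69 RPKM on cellulose, against 335, 325 and 561 RPKM on glucose (log2 fold change -5.41, SE 0.35, adjusted p = 3.8e-11). Its protein was among those found in the later cellulose culture fluid.

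Central metabolism differed as well. The lists below, apart from the sugar-polymer enzymes, were drawn from genes that the study had tabulated for other comparisons, mostly mutants against these same cellulose libraries. They are therefore partial and not a random sample of their pathways. Because the cellulose libraries took part in that choice, it can bear on how many genes of a list are higher or lower here. Gluconeogenesis and the glyoxylate cycle let a cell build sugars from acetate and amino acids. Phosphoenolpyruvate carboxykinase (PDE_08878), the committed step of gluconeogenesis, had 1594, 1523 and 1747 RPKM on cellulose, against 92.7, 89.8 and 103 RPKM on glucose (log2 fold change 4.08, SE 0.55, adjusted p = 1.4e-06). Malate synthase (PDE_03483), of the glyoxylate cycle, had 542, 423 and 515 RPKM on cellulose, against 22.9, 32.3 and 29.8 RPKM on glucose (log2 fold change 4.12, SE 0.37, adjusted p = 5.7e-09). Both were high on cellulose in every library and low on glucose in every library, and without carbon source PDE_08878 had 1351, 1454 and 1706 RPKM and PDE_03483 636, 755 and 619 RPKM. Fructose-bisphosphatase (PDE_08481) rose by 1.43 and acetyl-CoA synthetase (PDE_01716) by 5.08 on the log2 scale.

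Genes for the same enzyme moved in opposite directions. Of the 2 citrate synthase genes listed, PDE_03487 had 234, 235 and 212 RPKM on cellulose, against 19.4, 24.9 and 20.2 RPKM on glucose (log2 fold change 3.40, SE 0.32, adjusted p = 9.2e-09). The second, PDE_09135, had 132, 139 and 146 RPKM on cellulose, against 791, 884 and 768 RPKM on glucose (log2 fold change -2.56, SE 0.33, adjusted p = 9.2e-07). A glyceraldehyde phosphate dehydrogenase gene, PDE_04588, rose, with 53.5, 69.5 and 94.4 RPKM on cellulose, against 3.74, 4.12 and 3.19 RPKM on glucose, and was higher still without carbon source (229, 475 and 429 RPKM). Pyruvate dehydrogenase, which feeds pyruvate from glycolysis into the citric acid cycle, fell: its E1 alpha subunit gene PDE_02440 had 126, 124 and 127 RPKM on cellulose, against 748, 734 and 715 RPKM on glucose (log2 fold change -2.55, SE 0.15, adjusted p = 7.8e-12). Its E2 subunit gene PDE_02152 changed by -2.67 on the log2 scale.

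Ribosomal protein genes moved within a narrow range. All 72 listed genes for cytosolic ribosomal proteins were called lower on cellulose, and their log2 fold changes lay between -2.97 and -1.76 with a median of -2.49, beside 22.0% of all genes called lower. The study had tabulated them because they fell in a mutant against the same cellulose libraries, which does not fix their direction against glucose. They took 1.32, 1.37 and 1.44% of all reads on cellulose, against 7.94, 7.58 and 7.20% on glucose and 0.784, 1.19 and 0.814% without carbon source. The gene that changed most of the 72, that of ribosomal protein S20e (PDE_01695), had 344, 353 and 377 RPKM on cellulose, against 2973, 2806 and 2616 RPKM on glucose (log2 fold change -2.97, SE 0.24, adjusted p = 1.2e-09). Actin (PDE_01092), which the study used as a reference transcript, had 1261, 1404 and 1463 RPKM on cellulose, against 1223, 1309.8 and 1322 RPKM on glucose and was not called (0.09, adjusted p = 0.49). Cellulose against no carbon source was called for 4 of the 72 ribosomal protein genes, all higher (3.08% over all genes), with a median of 0.73. Glucose against no carbon source was called higher for 72 of 72 (19.7% over all genes), with a median of 3.24.

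The 10 genes for mitochondrial ribosomal proteins and the 11 for ribosome assembly fell in full as well (22.0% over all genes), with medians of -2.22 and -2.19. The largest changes were those of a mitochondrial S6 protein gene, PDE_00734 (-2.39), and of a subunit gene of the ribonucleoprotein that modifies ribosomal RNA, PDE_00206, which had 77.0, 77.9 and 74.2 RPKM on cellulose, against 482, 467 and 408 RPKM on glucose (-2.57). Fibrillarin (PDE_00286), the methyltransferase of ribosomal RNA, had 68.1, 69.9 and 73.3 RPKM on cellulose, against 398, 372 and 335 RPKM on glucose (log2 fold change -2.39, adjusted p = 2.1e-05). A transcription factor of RNA polymerase I, RRN7 (PDE_02848), had 125, 128 and 143 RPKM on cellulose, against 698, 693 and 624 RPKM on glucose (-2.35, adjusted p = 1.4e-09). No cellulose library reached a glucose library for any of these 21 genes, as held for 43.5% of all genes.

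**Figure D4:**
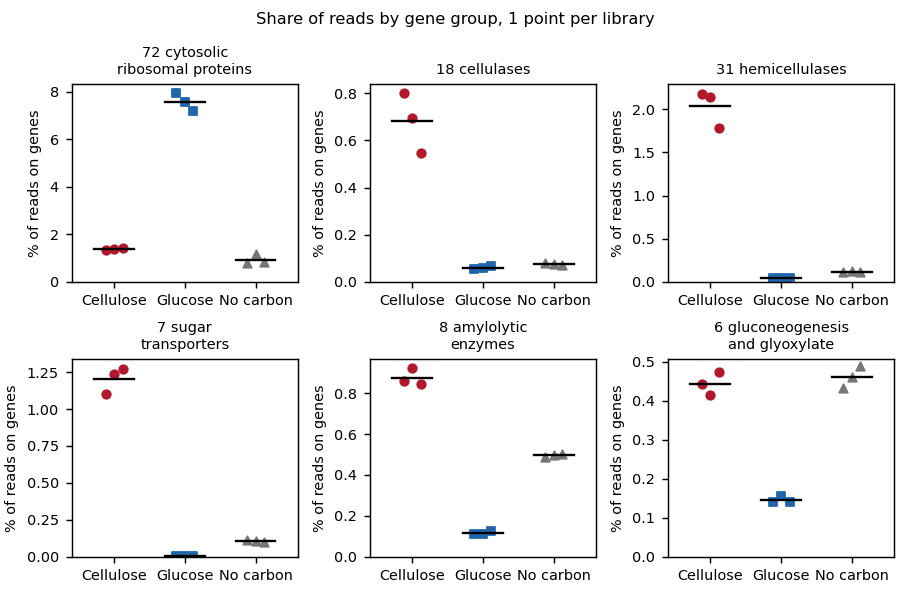
Percent of all reads on genes that fell on each of 6 gene groups, with 1 point for each wild-type library and a bar at the mean of 3, for cellulose, glucose and no carbon source from left to right. Ribosomal proteins take the larger share on glucose, the cellulase, hemicellulase, transporter and amylolytic groups on cellulose, and the gluconeogenesis group has like shares on cellulose and without carbon source.

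Biosynthetic lists leaned toward lower levels on cellulose. Of 28 amino acid synthesis genes 15 fell and 4 rose, beside 22.0% and 22.8% over all genes, with a median log2 fold change of -1.19. Ketol-acid reductoisomerase (PDE_02091), an enzyme of branched-chain amino acid synthesis, had 71.7, 79.8 and 84.8 RPKM on cellulose, against 1395, 1455 and 1368 RPKM on glucose (log2 fold change -4.16, SE 0.29, adjusted p = 1.4e-10). Cystathionine gamma-synthase (PDE_04106), of sulfur amino acid metabolism, was the largest increase of the list, with 131, 149.6 and 117 RPKM on cellulose, against 1.40, 2.21 and 2.90 RPKM on glucose (log2 fold change 5.92, SE 0.49, adjusted p = 1.6e-09). Of 14 ergosterol synthesis genes 9 fell and 2 rose (22.0% and 22.8% over all genes), with a median of -1.53. Here too 2 genes annotated as the same enzyme parted: the methylsterol monooxygenase gene PDE_05808 had 110.3, 115 and 113 RPKM on cellulose, against 1566, 2150.0 and 2379 RPKM on glucose (-4.17), and PDE_02139 had 32.1, 36.9 and 35.8 RPKM on cellulose, against 0.467, 0.832 and 0.939 RPKM on glucose (5.50).

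Of 14 listed genes for translocation, folding and glycosylation in the endoplasmic reticulum none was called higher (22.8% over all genes) and 7 were called lower (22.0%), with a median log2 fold change of -0.99. The Sec61 alpha subunit gene PDE_09594, for the channel that takes proteins into the endoplasmic reticulum, had 127, 143 and 149 RPKM on cellulose, against 271, 289 and 279 RPKM on glucose (log2 fold change -1.01, adjusted p = 1.1e-05). The gene for the chaperone BiP (PDE_08980) had 169, 179 and 164 RPKM on cellulose, against 239.9, 218 and 234 RPKM on glucose and was not called (-0.44, adjusted p = 0.23). The largest decrease was that of a mannosyltransferase subunit gene, PDE_03041 (-1.45). Calnexin (PDE_08629) was not called either (-0.55).

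Amino acid breakdown moved the other way. Of 14 genes for tyrosine and branched-chain amino acid breakdown 11 rose (22.8% over all genes) and none fell (22.0%), with a median log2 fold change of 3.13. The E2 subunit gene of the branched-chain 2-oxoacid dehydrogenase, PDE_08539, had 68.3, 66.1 and 45.2 RPKM on cellulose, against 1.97, 2.28 and 1.65 RPKM on glucose (log2 fold change 4.92, SE 0.64, adjusted p = 9.2e-07). Both subunit genes of methylcrotonyl-CoA carboxylase, which acts in leucine breakdown, rose, PDE_09769 by 3.79 and PDE_09756 by 4.64 on the log2 scale. The 7 branched-chain genes had higher means without carbon source than on cellulose. In the tyrosine branch, cellulose replicate 1 stood far above the other 2: the fumarylacetoacetase gene PDE_08907 had 1086, 142 and 411 RPKM on cellulose, against 75.2, 76.3 and 71.9 RPKM on glucose (log2 fold change 2.88). Homogentisate dioxygenase (PDE_08906) had 654, 105 and 248 RPKM on cellulose, against 49.0, 51.9 and 48.1 RPKM on glucose (2.76). Without that library their log2 fold changes were 1.87 and 1.81, both still called. The media did not overlap for either gene.

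Of 9 protease and peptidase genes 6 rose and 1 fell, beside 22.8% and 22.0% over all genes, with a median log2 fold change of 3.30. An aminopeptidase gene, PDE_02146, had 736, 686 and 659.9 RPKM on cellulose, against 3.32, 2.66 and 4.08 RPKM on glucose (log2 fold change 7.68, SE 0.24, adjusted p = 1.7e-15), and 451, 615 and 408 RPKM without carbon source. The carboxypeptidase gene PDE_05305 fell at a low level, with 3.09, 3.36 and 2.26 RPKM on cellulose, against 8.79, 9.48 and 7.28 RPKM on glucose (-1.55). Of 14 chitin and cell wall glucan genes 8 rose and 3 fell, and the 3 that fell are 21.4% of the list, near the 22.0% over all genes (22.8% rose). The chitinase gene PDE_08122 had 479.6, 407 and 361 RPKM on cellulose, against 24.4, 20.9 and 19.4 RPKM on glucose (log2 fold change 4.26, SE 0.33, adjusted p = 4.8e-10). The glucan synthase gene PDE_07868, for an enzyme that builds the cell wall, had 19.2, 29.6 and 21 RPKM on cellulose, against 227, 211 and 219.6 RPKM on glucose (log2 fold change -3.24, SE 0.29, adjusted p = 4e-09). Chitinase PDE_01573 fell too, so the 4 listed chitinase genes did not share a direction (-1.96 for this one, and 1.22 and 1.09 for the others besides PDE_08122). Of 3 histone genes 1, for histone H2A (PDE_01490), was called lower (-1.30, 22.0% over all genes).

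Genes tied to spores and pigment were listed as possible markers of spore development in the mycelium. Of the 6 listed, 4 rose and 2 fell (22.8% and 22.0% over all genes). The 4 that rose had been listed by the study on these libraries, and the 2 that fell had not. PDE_09832, a hypothetical protein gene that the study counts among sporulation genes, was the most abundant transcript on cellulose by mean RPKM, with 10348, 12104 and 14428 RPKM on cellulose, against 592, 533 and 1393 RPKM on glucose (log2 fold change 3.86, SE 0.39, adjusted p = 2.5e-08). Scytalone dehydratase (PDE_04496), an enzyme of melanin synthesis, had 181, 204 and 228 RPKM on cellulose, against 0.477, 1.78 and 2.40 RPKM on glucose (log2 fold change 7.01, SE 0.52, adjusted p = 2.9e-10). Of 3 tyrosinase genes, PDE_04260 rose (3.76) while PDE_03554 and PDE_04505 fell (-2.28 and -2.69). In whole mycelium, more cells of a kind and more RNA per cell cannot be told apart. Whether spore development differed between the media, or has a part in the other changes, was not tested.

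**Figure D5:**
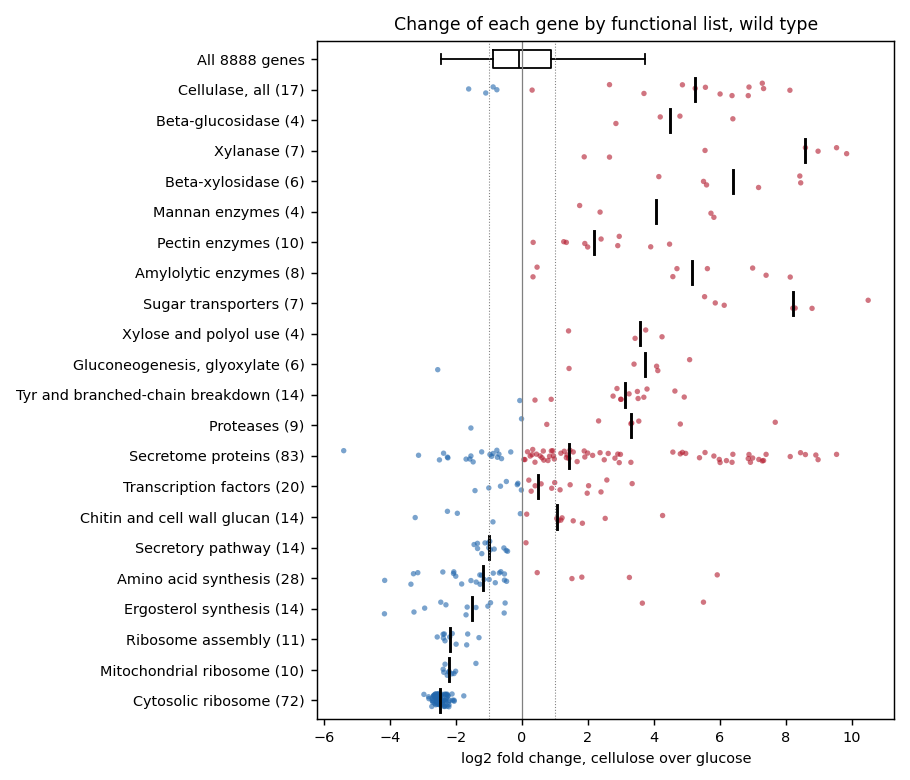
log2 fold change of cellulose over glucose for every tested gene of each list (points, red above and blue below 0) with the list median as a black bar and the number of tested genes in brackets. The top row gives all 8888 genes as a box spanning the quartiles, with whiskers over the central 90%, and dotted lines mark -1 and 1; the lists for ribosomes lie left of -1 and those for xylanases and sugar transporters right of 1.

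The 5 largest increases among called genes with more than 3 reads in each library and no overlap between media were PDE_03571, PDE_03475, PDE_03573, PDE_08035 and PDE_04478. PDE_03475, which has no annotated function here, had 1276, 1877 and 1525 RPKM on cellulose, against 1.13, 2.01 and 1.21 RPKM on glucose (log2 fold change 10.06, SE 0.57, adjusted p = 6.1e-12). Unlike the xylanase and transporter genes beside it in rank, it was nearly as high without carbon source, at 1046, 1060.2 and 797 RPKM. PDE_08035 had 1417, 2087 and 2024 RPKM on cellulose, against 2.92, 3.45 and 3.47 RPKM on glucose (log2 fold change 9.12, SE 0.38, adjusted p = 9.9e-14) and 85.3, 106 and 110.2 RPKM without carbon source. The 5 largest decreases were those of PDE_03140, PDE_05973, PDE_01411, PDE_01480 and PDE_04041, none of which is annotated in the sources used here. PDE_03140 had 3.53, 2.71 and 3.47 RPKM on cellulose, against 1023, 978 and 1032 RPKM on glucose, so that it was 312-fold higher on glucose (log2 fold change -8.29, SE 0.58, adjusted p = 1.2e-10). PDE_01480 had 4.04, 6.92 and 4.99 RPKM on cellulose, against 830.4, 676 and 847 RPKM on glucose (-7.21). The other 3 had log2 fold changes of -7.57, -7.35 and -7.12. All 5 decreases had low levels without carbon source as well, with means of 7.97, 2.16, 2.25, 7.08 and 3.21 RPKM in the order named.

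By mean RPKM the 5 most abundant transcripts on cellulose were those of PDE_09832, PDE_09098, PDE_04478, PDE_06391 and PDE_09166. PDE_09098 had 11692, 10418 and 10998 RPKM on cellulose, against 55.7, 60.4 and 70.5 RPKM on glucose (log2 fold change 7.47) and PDE_06391 7987, 9667 and 10716 RPKM on cellulose, against 203, 202 and 189.8 RPKM on glucose (5.57). PDE_09166 was abundant in both media and still higher on cellulose (2.56). Cellulose against no carbon source was not called for these 3, and PDE_09098 had 9549, 9650.5 and 8997 RPKM without carbon source, where PDE_04478 had 46.3, 38.2 and 45.7. On glucose the 5 most abundant were PDE_01194, PDE_06062, PDE_08701, PDE_07106 and PDE_09952. PDE_08701 had 382, 366 and 399 RPKM on cellulose, against 7938, 9002 and 9026 RPKM on glucose (log2 fold change -4.51, SE 0.33, adjusted p = 2.4e-10), and PDE_09952 fell by 2.58 on the log2 scale. PDE_06062 and the secretome gene PDE_07106 were abundant in both media and not called (-0.16 and -0.97). The 20 genes with most reads took 10.5, 10.4 and 10.6% of the reads in the cellulose libraries, against 11.4, 10.6 and 10.4% in the glucose libraries.

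The glutathione S-transferase gene PDE_01194 moved with 1 library and with the fit. It had 8233, 748 and 809.6 RPKM on cellulose, against 23896, 17755 and 14563 RPKM on glucose, and no cellulose library reached a glucose library. Its log2 fold change of -2.51 was not called in the 24-library fit (adjusted p = 0.11). With the same 6 wild-type libraries alone it was called in edgeR (-2.46, adjusted p = 0.022), with the replicate block (-3.45, adjusted p = 0.00039) and in DESeq2 (-2.43, adjusted p = 0.02), and it was also called in both limma analyses (-3.42 and -3.43, adjusted p = 0.029 and 0.03). Without cellulose replicate 1 the 24-library fit gave -4.61 and called it (adjusted p = 0.022). A like excess of replicate 1 was present without carbon source, at 1642, 157 and 167 RPKM.

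Some called genes had consecutive locus numbers, although no genome coordinates were used here. Runs of at least 5 consecutive numbers called in the same direction numbered 36 for increases, holding 230 of the 2030 called genes, and 10 for decreases, holding 54 of the 1951. The longest ran over 24 genes, PDE_00789 to PDE_00812, of which PDE_00811, annotated as a cytochrome P450 monooxygenase, is the 1 with a function given in the sources used here. Mean RPKM in this run had a median of 26.1 on cellulose, 1.63 on glucose and 12.1 without carbon source, and the log2 fold changes of cellulose over glucose lay between 1.04 and 6.26. PDE_00797 led it in level, with 103, 125 and 119 RPKM on cellulose, against 2.31, 2.37 and 7.13 RPKM on glucose, and PDE_00795 in change, with 17, 21.9 and 20.3 RPKM on cellulose, against 0.0797, 0.255 and 0.400 RPKM on glucose (6.26). PDE_00788, just before it, was not called. PDE_00813, just after it, was not among the genes tested, and PDE_00814 beyond that was called higher (2.06). PDE_00812 at its end was called with all libraries (1.36), but without cellulose replicate 1 it had 0.99 and was not. A second long run held 12 genes, PDE_09999 to PDE_10010, with a median log2 fold change of 3.94. PDE_10000 in it, annotated as a paspaline synthase, had 54.3, 62.9 and 62.4 RPKM on cellulose, against 1.20, 0.733 and 2.41 RPKM on glucose (log2 fold change 5.33, SE 0.37, adjusted p = 1.1e-10). Since the runs were found by these calls, the values inside them are a description.

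A run of 7 genes, PDE_08032 to PDE_08038, held the arabinanase gene PDE_08038, the beta-xylosidase genes PDE_08036 and PDE_08037 and PDE_08035, and had the highest median log2 fold change of all runs of 7 or more, 8.43. Another member, PDE_08033, not annotated here, had 545, 556 and 573 RPKM on cellulose, against 21.8, 25.9 and 27.6 RPKM on glucose and 331, 399.6 and 418 RPKM without carbon source. Enzyme genes also stood beside transporter genes: the xylanase gene PDE_00752 next to *cdtD* (PDE_00753), and the transporter gene PDE_03571 next to the alpha-glucuronidase gene PDE_03572 and the xylanase gene PDE_03573. PDE_03572 had 107, 102 and 97.8 RPKM on cellulose, against 0.743, 0.794 and 1.44 RPKM on glucose (log2 fold change 6.67, SE 0.21, adjusted p = 1.7e-15). The xylanase gene PDE_02101 stood next to the swollenin gene PDE_02102, and the alpha-glucosidase gene PDE_04151 next to the transporter gene PDE_04150. The longest run of decreases covered 7 genes, PDE_09443 to PDE_09449, with a median log2 fold change of -2.05.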

How the data were processed

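The wild type was measured by RNA-seq in 3 libraries each for cellulose, glucose and no carbon source. Labels mark the replicates only by number, and the study describes them as biological replicates. The authors used SOAP2 to place reads on the transcripts predicted for strain 114-2 (CASAVA 1.8 appears in the submitters' processing notes). They deposited unique read counts per gene without normalization, in which a dash stands for 0. RPKM values were deposited by the authors per coding length and library total. The percent of each transcript covered by reads was deposited by the authors and served as a check only. Reads shared by near-identical genes are not in unique counts, and whether strand was used is not given in the sources used here. No column was left unassigned, and columns of the authors' own comparisons were not used.

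Counts of 24 libraries in 8 group means were scaled by TMM and tested with edgeR 4.0.16 (quasi-likelihood, R 4.3.3), with Benjamini-Hochberg adjustment over the 8888 genes. The 944 genes under the RPKM limit were left out. Tables were made with Python 3.11.15 and pandas 2.3.3. The biological coefficient of variation was 19.8% over the 24 libraries, mutants included, whose shared spread the p-values rest on, and 10.4% in a fit of the 6 libraries compared. A fit of 6 libraries was tested on simulated counts for 8888 genes of the cellulose and glucose comparison, where 198 of 200 changed genes were recovered, with 1 false call. The simulation changed far fewer genes than were called here, none of them with few reads, and gave every gene the same spread. It therefore does not give the error rate of the calls. Ratios for genes with up to 3 reads per library carry exact intervals for counting error only. RPKM is scaled to library totals and fold changes by TMM. Alternatives were other size factors, DESeq2 1.42.0, limma 3.58.1 on log2(RPKM + 1) and log2(RPKM + 0.1), a fit of the 6 libraries, a replicate block, other filters and thresholds, and leaving out each library. The members and gene lists were chosen with earlier results of these data known. Genes named by rule are all members of the cellulase, beta-glucosidase, xylanase, mannan, transporter and swollenin lists and 7 regulator and reference genes, the 5 largest changes each way and the 5 most abundant genes per medium, and the called extremes of each other list. Other genes named were chosen after their values were seen. Gene names come from the study's annotation.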

Additional observations from a re-analysis of the deposited data

How the results depend on the processing

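Across the alternatives that kept the fold threshold, 1921 to 2136 genes were called higher on cellulose and 1782 to 2024 lower. Without the fold threshold the counts were 3057 higher and 3342 lower, and with an absolute log2 fold change above 2 they were 1115 higher and 790 lower. Leaving out each library in turn gave 2005 to 2028 higher and 1920 to 1946 lower, 12 to 12 cellulase genes higher and 2 to 2 lower, 72 to 72 cytosolic ribosomal protein genes lower, 30 to 31 hemicellulase genes and 7 to 7 transporter genes higher, 46 to 48 secretome genes higher and 11 to 12 lower, and 7 to 8 transcription factor genes higher and 1 to 2 lower. The count of transcription factor genes called lower was 1 in place of 2 with median-ratio size factors, DESeq2, both limma analyses, the fit of 6 libraries, the replicate block, and without cellulose replicate 1 or glucose replicate 1, since PDE_01512 lay at the limit. With the replicate block 2106 genes were called higher and 1877 lower. Cellulose and glucose libraries with the same number did not deviate together (correlations 0.04, -0.04 and 0.02). Whether cultures with the same number shared a preculture or a batch was not tested.

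Of the 159 tested genes named in the text or by rule, 151 had the same call in each of 15 alternatives. Only PDE_00788, which was not called, changed sign, at -0.16 without cellulose replicate 1 and -0.11 without glucose replicate 2, against 0.09 with all libraries (-0.16 to 0.42 over the libraries left out in turn). PDE_01988 (*ace1*) passed the fold limit in 6 alternatives, at 1.04 to 1.07. PDE_01194 was called in 6, at -4.61 without cellulose replicate 1 and -2.43 to -3.45 in the others. PDE_07106 was called in 3, at -1.02 to -1.10. Calls were lost for PDE_01512 in 8 (-0.929 to -0.996), for PDE_09594 in 7 (-0.929 to -0.998), and for PDE_00812 and PDE_06067 in 1 each, without cellulose replicate 1 and 3, at 0.99 for both. Why these 8 moved was not tested. At about 8 M reads per library, genes with a few reads on glucose have wide intervals for their ratios.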

Other observations

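Beyond the lists, annotated genes with large changes were looked up after the lists had been described, 8 in each direction by size of change, and they are given as values. The mitochondrial oxoglutarate carrier gene PDE_08879, whose locus number is next to that of phosphoenolpyruvate carboxykinase (PDE_08878), had 295, 371 and 526 RPKM on cellulose, against 2.10, 1.98 and 1.61 RPKM on glucose (log2 fold change 7.69, SE 0.30, adjusted p = 3.5e-14). An alcohol dehydrogenase gene, PDE_01278, had 169.8, 69.9 and 165 RPKM on cellulose, against 0.333, 1.54 and 1.11 RPKM on glucose (log2 fold change 7.07). The cutinase gene PDE_07475, for an enzyme that cuts plant cutin, had 1349, 1211 and 1202 RPKM on cellulose, against 16.5, 21.3 and 13.6 RPKM on glucose (6.19). The cellulose libraries lay above the glucose libraries for all 3 genes. PDE_04495, annotated as an oxoacyl reductase, has the locus number next to that of scytalone dehydratase (PDE_04496) and had 455, 449 and 450.4 RPKM on cellulose, against 1.97, 1.95 and 6.55 RPKM on glucose (6.99). The amino acid transporter gene PDE_06018 and PDE_00008, annotated as a dehydroquinate synthase, rose by 6.39 and 5.59 on the log2 scale.

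Cellulose replicate 1 was again high in 2 genes for the breakdown of aromatic compounds. The salicylate hydroxylase gene PDE_07956 had 124, 8.62 and 35.8 RPKM on cellulose, against 0.547, 0.779 and 0.823 RPKM on glucose (6.28), and PDE_04228, annotated as a hydroxylase of hydroxyphenylacetate, had 523, 32.6 and 179 RPKM on cellulose, against 4.21, 2.83 and 6.74 RPKM on glucose (5.73). Without that library the log2 fold changes were 4.90 and 4.48, and both remained called.

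Of the genes that fell, subunit c of the F-type ATP synthase (PDE_07836), which forms the rotating ring of the enzyme, had 390.3, 444 and 461 RPKM on cellulose, against 5281, 5415 and 5498 RPKM on glucose (log2 fold change -3.65, SE 0.22, adjusted p = 1.7e-11). The mitochondrial phosphate carrier gene PDE_03205, which supplies that enzyme, had 25.2, 22.5 and 26.9 RPKM on cellulose, against 196, 254 and 232 RPKM on glucose (-3.20). No cellulose library came near a glucose library for either gene. PDE_03558 (PET100, an assembly factor of cytochrome c oxidase in yeast) and PDE_04036 (ATP23, a protease that acts in ATP synthase assembly in yeast) fell, with log2 fold changes of -3.34 and -3.29. The acid phosphatase gene PDE_02797 had 1.42, 1.62 and 1.95 RPKM on cellulose, against 61.5, 61.9 and 67.7 RPKM on glucose (-5.25), and its media did not overlap. The chitosanase gene PDE_08733 had 43.6, 5.19 and 5.30 RPKM on cellulose, against 468, 129 and 32.5 RPKM on glucose (-3.54, adjusted p = 0.0021), so that cellulose replicate 1 lay above glucose replicate 3 and the media overlapped. Its log2 fold change was -5.35 without cellulose replicate 1 and -2.12 without glucose replicate 1, and it remained called (edgeR, adjusted p = 0.00031 and 0.038). PDE_04204, for a subunit of the vitamin B6 synthase, and the methionyl aminopeptidase gene PDE_02857 had log2 fold changes of -2.95 and -2.70.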
